A study of Mus musculus with 16 samples.

Results

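The glutathione transferases of the mu class (*Gstm1* to *Gstm7*) and the pi class (*Gstp1* to *Gstp3*) were followed in mouse liver RNA. The 10 genes were taken by symbol from a table of 56832 genes, a choice made with earlier results of these data known, and all 10 were among the 15128 genes whose values were high enough to be tested. Liver RNA libraries came from adult mice of 4 labelled groups with 4 libraries each: Gclc L-KO (*Gclc* f/f), Nrf2 L-KO (*Nrf2* f/f), L-DKO (*Gclc* f/f *Nrf2* f/f) and WT (*Gclc* wt/wt). All 4 groups, WT included, received AAV-TBG-Cre through the tail vein and were taken 3 weeks later. The TBG promoter restricts Cre recombinase to hepatocytes, so the other cells of these whole-liver samples keep the floxed genes.

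Glutathione transferases are dimeric enzymes that join glutathione to electrophilic compounds, the first step of mercapturic acid formation. The mu and pi classes are soluble forms that also bind hydrophobic ligands, and several of their genes are well-known targets of NRF2 (encoded by *Nfe2l2*), a transcription factor that binds antioxidant response elements when KEAP1 no longer holds it back. GCLC is the catalytic subunit of glutamate-cysteine ligase, which makes the precursor of glutathione, and *Gclc* deletion therefore removes the synthesis of the co-substrate that these transferases use.

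The mu-class genes lie side by side on chromosome 3 between bases 107895821 and 108044894 and the pi-class genes on chromosome 19 between 4035407 and 4059569 (GRCm38, GENCODE). The deposited values were made on GRCm39, and no coordinate was carried between the builds. The 250 bases upstream of the annotated start are shown for 5 members (RefSeq, GRCm38.p6, 5′ to 3′ on the gene's strand). They are the neighbours *Gstp1* and *Gstp2*, whose values differed between groups in unlike ways, and *Gstp3*, which went the other way. The others are *Gstm3*, the mu-class gene with the largest difference in Gclc L-KO, and *Gstm5*. *Gstm5* was called in no comparison between genotypes in the fit to all libraries. Capitals mark the antioxidant response element core TGACNNNGC and the AP-1-like core TGANTCA on either strand.
Gstp1, chr19:4037913-4038162, minus strand: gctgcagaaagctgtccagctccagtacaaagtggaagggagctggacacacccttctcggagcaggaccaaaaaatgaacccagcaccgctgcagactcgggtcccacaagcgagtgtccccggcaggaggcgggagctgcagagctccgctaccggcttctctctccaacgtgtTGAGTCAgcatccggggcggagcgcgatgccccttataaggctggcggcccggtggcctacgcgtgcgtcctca
Gstp2, chr19:4042222-4042471, minus strand: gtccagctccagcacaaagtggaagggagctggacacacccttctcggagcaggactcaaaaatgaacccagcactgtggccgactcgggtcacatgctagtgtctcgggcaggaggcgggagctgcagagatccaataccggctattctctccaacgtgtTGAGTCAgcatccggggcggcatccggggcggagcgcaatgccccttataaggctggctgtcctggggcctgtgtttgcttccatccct
Gstp3, chr19:4059448-4059697, minus strand: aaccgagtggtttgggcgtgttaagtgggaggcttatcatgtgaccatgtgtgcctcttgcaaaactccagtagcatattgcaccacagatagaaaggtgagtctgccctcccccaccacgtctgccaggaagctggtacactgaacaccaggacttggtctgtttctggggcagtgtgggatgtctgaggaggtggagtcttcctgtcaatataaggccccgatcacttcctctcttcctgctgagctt
Gstm3, chr3:107969175-107969424, minus strand: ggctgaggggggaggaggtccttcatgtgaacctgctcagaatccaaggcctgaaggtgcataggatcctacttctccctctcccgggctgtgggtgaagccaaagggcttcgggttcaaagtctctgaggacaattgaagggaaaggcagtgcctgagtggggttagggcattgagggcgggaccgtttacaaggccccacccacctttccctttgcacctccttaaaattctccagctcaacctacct
Gstm5, chr3:107895604-107895853, plus strand: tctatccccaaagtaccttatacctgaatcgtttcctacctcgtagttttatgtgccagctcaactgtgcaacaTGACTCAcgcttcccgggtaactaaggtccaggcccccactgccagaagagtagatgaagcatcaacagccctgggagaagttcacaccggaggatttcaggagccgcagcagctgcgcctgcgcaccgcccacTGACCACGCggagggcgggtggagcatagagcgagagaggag

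The core TGACNNNGC, searched on both strands in windows from 250 bases before to 50 bases after each RefSeq start, was held by 12.4% of 32851 windows of all genes. Of 27025 genes, some with more than 1 window, 14.0% held it in at least 1. Among the members it was found in *Gstm5*, 42 bases before the start, and in 1 of the windows of *Gstm7*, 129 bases before the start. The windows of the other 8 members did not hold these exact letters, and looser forms of the core were not searched. The core TGANTCA was looked for after the values and the sequences had been seen. It was held by 7.81% of all windows and 8.97% of genes. Among the members it was held by *Gstp1* and *Gstp2*, as the same 7 letters at 74 and 89 bases before the start, and by *Gstm5* at 176 bases. In *Gstp1* and *Gstp2* the letters GC follow it directly. The run TGAGTCAGC made in this way differs from the core TGACNNNGC only by G in place of C. The STAT motif TTCNNNGAA, present in 8.30% of windows and 9.55% of genes, was found in 1 window of *Gstm6*. A match is a run of letters and does not show that a factor binds there. The *Gstp1* and *Gstp2* windows were identical at 243 of 282 aligned positions (86.2%), whereas *Gstp3* shared 64.8% of aligned positions with *Gstp1*.

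The likeness of the pi-class genes extends into their transcripts. Of all 50-base stretches in annotated transcripts (GENCODE, GRCm38), 33.7% of those in *Gstp1* also occur in *Gstp2*, and 49.1% of those in *Gstp2* occur in *Gstp1*. The pseudogene *Gstp-ps* shares 71.1% of its stretches with *Gstp2*. Values of these genes are uncertain to that extent, since the counting rule for reads that fit more than 1 gene is not given in the sources used here. For *Gstm1* the share found in any other member or in the pseudogene *Gstm2-ps1* was 15.9% and for *Gstm3* 18.3%, for *Gstm6* 3.49% and for *Gstm2* 0.655%. *Gstm4*, *Gstm5*, *Gstm7* and *Gstp3* shared none. *Gstm5* overlaps a gene on the opposite strand, *4933431E20Rik*.

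Values are DESeq2 rlog values, regularized log2 counts scaled between libraries, in which a difference of 1 is a factor of 2 and differences of low-count genes are pulled towards 0. They are not per unit of gene length, so levels are compared between groups and not between genes. The files hold no counts, so the depth of each library is unknown. Differences were tested with limma across the 15128 genes, two-sided, with Benjamini-Hochberg adjusted p-values. A gene is called where the adjusted p is under 0.05. The p-values measure the spread between libraries of a group. All comparisons with WT use the same 4 WT libraries.

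The groups were taken from the labels. *Gclc* averaged 13.43 ± 0.61 in Gclc L-KO, 12.79 ± 0.19 in Nrf2 L-KO, 11.47 ± 0.14 in L-DKO and 13.22 ± 0.28 in WT (rlog, SD, n = 4 each), so the gene-level value was lower in L-DKO but not called in Gclc L-KO against WT (adjusted p = 0.535). *Nfe2l2* was not called in Nrf2 L-KO against WT (difference 0.62, adjusted p = 0.567). In L-DKO it was called higher, by 1.20 over WT (adjusted p = 0.00415) and by 1.003 over Gclc L-KO (adjusted p = 0.00774), which is the direction opposite to the label. A value over the whole gene also counts exons outside a deleted part, so it is no check of either deletion. *Nqo1*, which encodes a quinone reductase and is a standard NRF2 target, differed by 3.88 between Gclc L-KO and WT and by 0.00 between L-DKO and WT. Replicates 3 and 4 of every group had *Xist* values of 7.95 to 8.91 and *Ddx3y* values of 10.35 to 10.80, and replicates 1 and 2 of every group had *Xist* values of 14.10 to 14.65 and *Ddx3y* values of 5.07 to 5.37. Sex is not stated in the labels. The pairs are balanced over the groups, and values within each pair are given beside the called results that were not called in fits to 1 of the pairs, in which each group has 2 libraries.

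**Figure D1:**
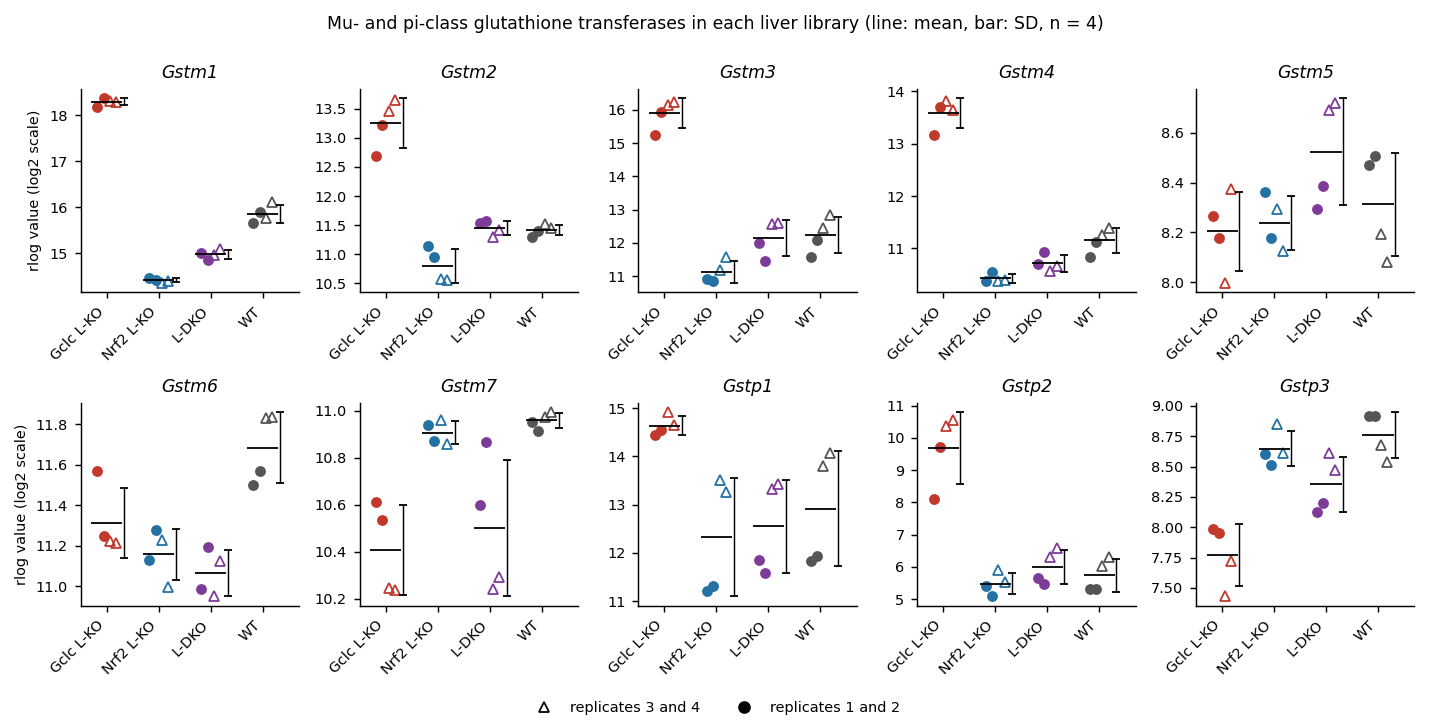
rlog value (log2 scale) of each member in the 16 liver libraries, with 1 panel per gene on its own axis. Triangles are replicates 3 and 4, circles replicates 1 and 2, lines are group means and bars the SD of 4 libraries. *Gstm1*, *Gstm2*, *Gstm3*, *Gstm4*, *Gstp1* and *Gstp2* have every Gclc L-KO library above every WT library, and *Gstp1* separates into replicate pairs in the other 3 groups.

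Deletion of *Gclc* alone was followed by higher RNA of 4 neighbouring mu-class genes and of *Gstp2*, and by lower RNA of *Gstm6*, *Gstm7* and *Gstp3*. *Gstp1* was higher in both replicate pairs but was not called in the fit to all libraries, which has no term for the pairs. In Gclc L-KO against WT 5 of the 10 members were higher (10.6% of all tested genes were called higher) and 3 were lower (12.4% of all tested genes). The median difference of the members was 1.78, beside 0.00 over all tested genes. In 6 members every Gclc L-KO library lay above every WT library and in 2 every one lay below (13.3% of all tested genes in each direction). The differences ran from 3.95 for *Gstp2* down to -0.99 for *Gstp3*.

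*Gstm1*, a main mu-class enzyme of rodent liver, had values of 18.19, 18.37, 18.32 and 18.29 in Gclc L-KO, against 15.67, 15.90, 15.77 and 16.12 in WT. The groups were far apart and the Gclc L-KO libraries were close to each other. The difference was 2.43 ± 0.11 (SE), a factor of 5.38, with an adjusted p of 1.33e-08. *Gstm4*, the neighbour of *Gstm1*, had values of 13.18, 13.70, 13.82 and 13.65 in Gclc L-KO, against 10.84, 11.13, 11.26 and 11.39 in WT. No library of one group reached the other, and the difference was as large as that of *Gstm1* (2.43 ± 0.13, adjusted p = 5.25e-08).

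*Gstm3*, a further soluble mu-class enzyme, showed the largest difference of its class. Its values were 15.25, 15.94, 16.16 and 16.24 in Gclc L-KO, against 11.59, 12.08, 12.45 and 12.85 in WT. The lowest Gclc L-KO library lay well above the highest WT library, and the difference was 3.66 ± 0.30, a factor of 12.6 (adjusted p = 2.90e-06). *Gstm2*, a mu-class gene whose human counterpart is known as a muscle form, had values of 12.68, 13.22, 13.47 and 13.65 in Gclc L-KO, against 11.30, 11.40, 11.53 and 11.44 in WT. Replicate 1 was the lowest Gclc L-KO library for *Gstm1*, *Gstm2*, *Gstm3*, *Gstm4*, *Gstp1* and *Gstp2*. The *Gstm2* difference was 1.84 ± 0.18, a factor of 3.58 (adjusted p = 1.20e-05). The pseudogene *Gstm2-ps1* was higher by 2.43 as well (adjusted p = 6.45e-07). Of its 50-base stretches 35.4% also occur in *Gstm1*, so its value is uncertain to that extent.

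*Gstp2*, which encodes a pi-class enzyme very like that of *Gstp1*, had the largest difference of all members. Its values were 8.10, 9.72, 10.37 and 10.55 in Gclc L-KO, against 5.30, 5.31, 6.03 and 6.30 in WT. The Gclc L-KO libraries were widely spread, but all of them were above all WT libraries. The difference was 3.95 ± 0.44, a factor of 15.4 (adjusted p = 6.29e-05). *Gstp1*, the main pi-class gene of mouse liver, had values of 14.44, 14.55, 14.92 and 14.64 in Gclc L-KO, against 11.83, 11.94, 13.81 and 14.07 in WT. The groups did not overlap, yet the WT values fell into 2 levels and the difference of 1.72 ± 0.63 was not called (adjusted p = 0.0615). Without WT replicate 4 it was called (adjusted p = 0.0381). In replicates 3 and 4 alone the difference was 0.84, and in replicates 1 and 2 alone it was 2.61, and both were called in fits to those libraries (adjusted p = 0.00417 and 1.08e-04). The pseudogene *Gstp-ps* was called higher (1.64, adjusted p = 0.0244).

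*Gstp3*, a less-studied pi-class gene, went down. It had values of 7.99, 7.95, 7.43 and 7.72 in Gclc L-KO, against 8.91, 8.92, 8.68 and 8.54 in WT. The groups did not overlap and the difference was -0.99 ± 0.14 (adjusted p = 3.75e-04). *Gstm7*, a mu-class gene, had values of 10.61, 10.53, 10.25 and 10.24 in Gclc L-KO, against 10.95, 10.92, 10.97 and 10.99 in WT. WT libraries were nearly equal and all above Gclc L-KO, with a difference of -0.55 ± 0.12 (adjusted p = 0.00538). It was -0.74 in replicates 3 and 4 and -0.36 in replicates 1 and 2, where it was not called (adjusted p = 0.0790).

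*Gstm6*, whose product is a mu-class enzyme, had values of 11.57, 11.25, 11.22 and 11.21 in Gclc L-KO, against 11.50, 11.57, 11.83 and 11.84 in WT. Replicate 1 of Gclc L-KO lay within the WT range, and the others lay below it. The difference of -0.37 ± 0.10 passed the threshold (adjusted p = 0.0181), but not without Gclc L-KO replicate 3 or 4 or without WT replicate 3 or 4 (adjusted p up to 0.0591). The *Gstm6* difference was -0.62 in replicates 3 and 4 and -0.13 in replicates 1 and 2 (adjusted p = 0.574 in the second pair). *Gstm5*, which is known as a brain- and testis-enriched mu-class form, differed by -0.11 ± 0.12 (adjusted p = 0.553), with overlapping groups.

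Some markers of hepatocytes and of other liver cell types also differed in Gclc L-KO. There 10.6% of all tested genes were called higher and 12.4% lower. Of 5 hepatocyte markers 3 were lower (*Apoa1*, *Serpina1c* and *Cps1*), and the mean of the list lay between 16.26 and 16.96 in Gclc L-KO libraries, against 17.70 to 17.88 in WT. Of 5 Kupffer cell markers 3 were higher (*Clec4f*, *Adgre1* and *Cd5l*), and the mean of that list lay between 10.35 and 11.03 in Gclc L-KO, against 9.58 to 10.03 in WT. Of 5 endothelial markers 1, *Lyve1*, was higher, and *Stab2*, *Pecam1*, *Clec4g* and *Kdr* were not called. No listed marker was at 0 in the libraries, and the part of these shifts in the values of the members was not tested. In whole liver, fewer cells of a type and less RNA per cell cannot be told apart. Of 11 genes of the pericentral zone, the area around the central vein, 7 were lower and 1 was higher, and their part was not tested either.

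**Figure D2:**
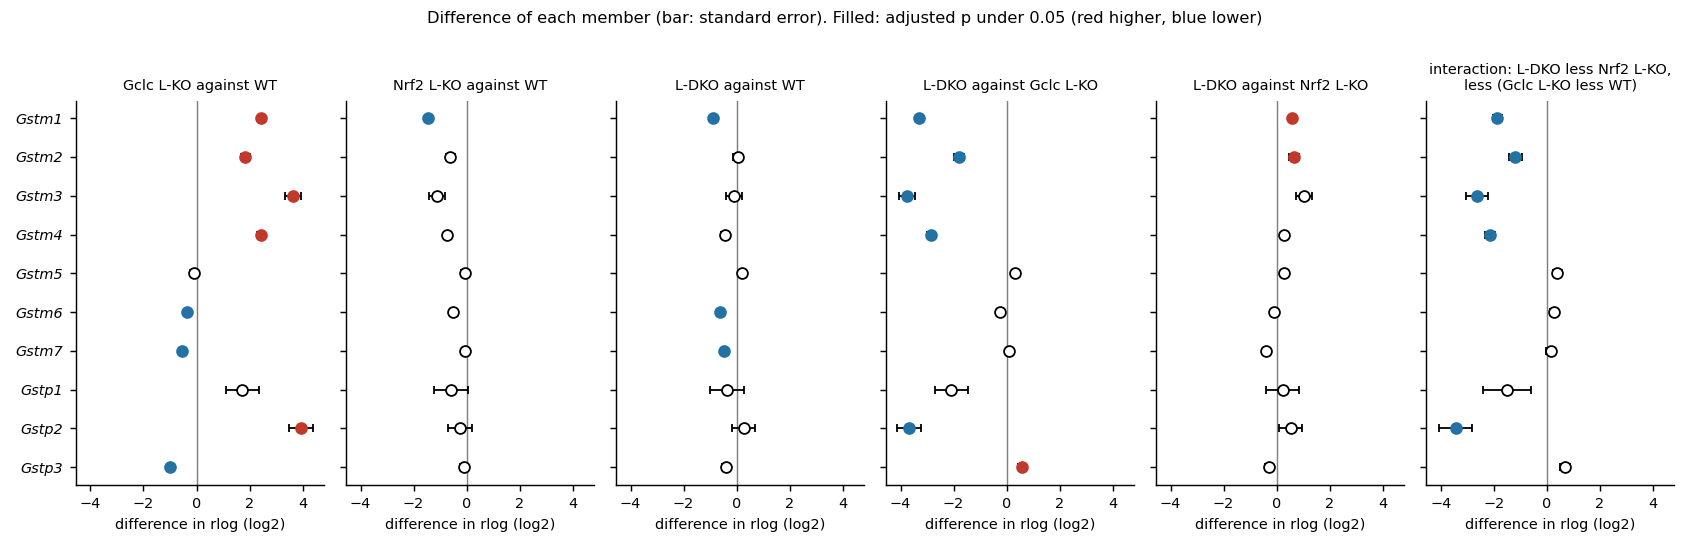
Difference in rlog value (log2, horizontal axis) of each member in the 5 comparisons between groups and in the interaction. Points are limma estimates and bars standard errors, and filled points have an adjusted p under 0.05. *Gstm1* to *Gstm4* and *Gstp2* lie right of 0 in Gclc L-KO against WT, and left of 0 in the interaction and where L-DKO is set against Gclc L-KO.

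Deletion of *Nrf2* alone left a single called member, *Gstm1*. In Nrf2 L-KO against WT 1 of 10 members was called lower (0.126% of all tested genes were called lower, 0.0132% higher). At an unadjusted p under 0.05, limma gave 5 members as lower and 0 as higher, beside 3.14% and 3.77% of all tested genes. The median difference of the members was -0.56, beside 0.00 over all tested genes.

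*Gstm1* had values of 14.46, 14.43, 14.37 and 14.41 in Nrf2 L-KO, against 15.67, 15.90, 15.77 and 16.12 in WT. All Nrf2 L-KO libraries were close together and below every WT library, and the difference was -1.45 ± 0.11 (adjusted p = 3.67e-05). It was -1.56 in replicates 3 and 4 and -1.34 in replicates 1 and 2, and with only replicates 1 and 2 the adjusted p was 0.0560.

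The groups did not overlap either for *Gstm2*, *Gstm3*, *Gstm4* or *Gstm6*, and none of these 4 passed the threshold over all genes. With *Gstm1*, 5 members had every Nrf2 L-KO library below every WT library, beside 2.70% of all tested genes (1.83% had them all above). *Gstm4* had values of 10.39, 10.55, 10.38 and 10.40 in Nrf2 L-KO, against 10.84, 11.13, 11.26 and 11.39 in WT. The 2 ranges were separate, and the difference was -0.72 ± 0.13 (adjusted p = 0.0552). *Gstm3* had values of 10.91, 10.87, 11.20 and 11.57 in Nrf2 L-KO, against 11.59, 12.08, 12.45 and 12.85 in WT. Its highest Nrf2 L-KO library almost touched its lowest WT library, with a difference of -1.11 ± 0.30 (adjusted p = 0.390). In a fit with a replicate block, in which libraries with the same number are paired, *Gstm3* and *Gstm4* were called (adjusted p = 0.0201 and 0.0278). *Gstm6* differed by -0.53 ± 0.10 (adjusted p = 0.0680) and *Gstm2* by -0.61 ± 0.18 (adjusted p = 0.428). Without WT replicate 1 both *Gstm4* and *Gstm6* were called (adjusted p = 0.0234 and 0.0464). The remaining members, *Gstm5*, *Gstm7* and the 3 pi-class genes, had overlapping groups.

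When *Nrf2* was deleted together with *Gclc*, none of the 5 members called higher in Gclc L-KO was called higher than in WT, and *Gstm1* was called lower. Beside Gclc L-KO, L-DKO had 5 of 10 members lower (4.80% of all tested genes were called lower) and 1 higher (3.84%). The median difference of the members was -1.94, beside 0.00 over all tested genes. In 7 members every L-DKO library lay below every Gclc L-KO library (7.03% of all tested genes) and in 1 above (6.88%). This comparison shares the Gclc L-KO libraries with the comparison above, so the members' values are given side by side and are no second observation of the Gclc L-KO level.

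*Gstm1* had values of 15.01, 14.85, 14.97 and 15.10 in L-DKO, below every Gclc L-KO library and also below every WT library. The difference was -3.31 ± 0.11 from Gclc L-KO (adjusted p = 2.99e-10) and -0.89 ± 0.11 from WT (adjusted p = 9.72e-04). The difference from WT was -0.91 in replicates 3 and 4 and -0.86 in replicates 1 and 2, where it was not called (adjusted p = 0.0608). *Gstm4* had values of 10.71, 10.93, 10.56 and 10.66 in L-DKO. It lay below all Gclc L-KO libraries, with a difference of -2.87 ± 0.13 (adjusted p = 4.86e-09), and its difference from WT of -0.44 ± 0.13 was not called (adjusted p = 0.0509), with groups that overlapped. That call was made without L-DKO replicate 2 and without WT replicate 1 (adjusted p down to 0.0247).

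*Gstm3* had values of 12.00, 11.45, 12.58 and 12.60 in L-DKO, all inside or close to the WT range and none near Gclc L-KO. It differed from Gclc L-KO by -3.74 ± 0.30 (adjusted p = 2.11e-06) and from WT by -0.09 ± 0.30 (adjusted p = 0.884). *Gstm2* had values of 11.54, 11.57, 11.30 and 11.42 in L-DKO. These overlapped WT, and the difference was -1.80 ± 0.18 from Gclc L-KO (adjusted p = 1.51e-05) and 0.04 ± 0.18 from WT (adjusted p = 0.911).

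*Gstp2* had values of 5.66, 5.48, 6.31 and 6.58 in L-DKO, which overlapped WT. The difference was -3.68 ± 0.44 from Gclc L-KO (adjusted p = 1.26e-04) and 0.27 ± 0.44 from WT (adjusted p = 0.731). *Gstp1* had values of 11.86, 11.59, 13.33 and 13.42 in L-DKO, all below Gclc L-KO and again in 2 levels by replicate pair. The difference from WT was -0.36 ± 0.63 (adjusted p = 0.750). It was -0.56 in replicates 3 and 4, where it was called (adjusted p = 0.0251), and -0.16 in replicates 1 and 2. *Gstp1* differed from Gclc L-KO by -2.09 ± 0.63 (adjusted p = 0.0536, and 0.00168 with a replicate block), by -1.40 in replicates 3 and 4 and by -2.77 in replicates 1 and 2.

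The members that were lower in Gclc L-KO did not move together in L-DKO. *Gstp3* had values of 8.13, 8.20, 8.61 and 8.47 in L-DKO, above every Gclc L-KO library. The difference from Gclc L-KO was 0.58 ± 0.14 (adjusted p = 0.0199), and it was not called without Gclc L-KO replicate 3, L-DKO replicate 3 or L-DKO replicate 4 (adjusted p up to 0.0713). It was 0.97 in replicates 3 and 4 and 0.19 in replicates 1 and 2, where it was not called (adjusted p = 0.373), nor was it in a fit to the compared groups alone (adjusted p = 0.0789). Against WT, *Gstp3* differed by -0.41 ± 0.14 (adjusted p = 0.0760), by -0.06 in replicates 3 and 4 and by -0.75 in replicates 1 and 2, where it was called (adjusted p = 0.0340). *Gstm7* had values of 10.60, 10.87, 10.24 and 10.30 in L-DKO, against 10.95, 10.92, 10.97 and 10.99 in WT. All L-DKO libraries were below WT, with a difference of -0.46 ± 0.12 (adjusted p = 0.0290), and the call held when L-DKO replicate 1 or 2 was left out. Leaving out L-DKO replicate 3 or 4 or any WT library ended it (adjusted p up to 0.106). The *Gstm7* difference was -0.71 in replicates 3 and 4 and -0.20 in replicates 1 and 2 (adjusted p = 0.301 in the second pair), and it was not called without the filter on low values (adjusted p = 0.0569) or in a fit to the compared groups alone (adjusted p = 0.0700). *Gstm6* had values of 10.99, 11.19, 10.95 and 11.12 in L-DKO, below every WT library, with a difference of -0.62 ± 0.10 (adjusted p = 0.00333). It was -0.80 in replicates 3 and 4 and -0.44 in replicates 1 and 2, where it was not called (adjusted p = 0.131). In all, 3 members were called lower in L-DKO against WT (6.17% of all tested genes were called lower, 3.79% higher). At an unadjusted p under 0.05, limma gave 5 as lower and 0 as higher, beside 15.2% and 13.4% of all tested genes. The 3 called members were those with every L-DKO library below every WT library (9.43% of all tested genes, with 8.16% above).

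Set against Nrf2 L-KO, the added *Gclc* deletion gave small differences, with 2 members called higher (2.65% of all tested genes were called higher, 2.61% lower). *Gstm1* was higher in L-DKO by 0.57 ± 0.11 (adjusted p = 0.0150) and all L-DKO libraries lay above all Nrf2 L-KO libraries, as in 3 members and 6.91% of all tested genes (6.64% had them all below). Without Nrf2 L-KO replicate 3, L-DKO replicate 3 or L-DKO replicate 4 that difference was not called (adjusted p up to 0.0586), nor in replicates 1 and 2 alone (0.49, adjusted p = 0.314, against 0.65 in replicates 3 and 4). *Gstm2* had values of 11.54, 11.57, 11.30 and 11.42 in L-DKO, against 11.14, 10.96, 10.57 and 10.55 in Nrf2 L-KO. The groups were separate, and the difference of 0.65 ± 0.18 (adjusted p = 0.0457) was called in only 1 of the 8 fits that left out a library, the one without Nrf2 L-KO replicate 1 (adjusted p up to 0.119 in the others). It was 0.80 in replicates 3 and 4 and 0.50 in replicates 1 and 2, where it was not called (adjusted p = 0.336). *Gstm3* differed by 1.02 ± 0.30 (adjusted p = 0.0630) and *Gstm7* by -0.40 ± 0.12 (adjusted p = 0.0599). Without L-DKO replicate 2 both were called (adjusted p = 0.0168 and 0.00650).

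The interaction asks whether the effect of *Gclc* deletion differed with and without *Nrf2*, as L-DKO less Nrf2 L-KO, less the difference of Gclc L-KO and WT. It was called lower for 5 of the 10 members, beside 0.463% of all tested genes called lower and 0.225% called higher. The 5 were *Gstm4* (-2.15 ± 0.19, adjusted p = 3.48e-05), *Gstm1* (-1.86 ± 0.16, adjusted p = 3.48e-05), *Gstm3* (-2.63 ± 0.43, adjusted p = 0.0112), *Gstp2* (-3.43 ± 0.62, adjusted p = 0.0235) and *Gstm2* (-1.19 ± 0.25, adjusted p = 0.0434). *Gstp1* had an estimate of -1.50 ± 0.89 (adjusted p = 0.453). The *Gstp2* call was lost without Gclc L-KO replicate 3, Nrf2 L-KO replicate 3 or WT replicate 1 (adjusted p up to 0.0632). That of *Gstm2* was lost in 14 of 16 such fits, all but those without Gclc L-KO replicate 1 or Nrf2 L-KO replicate 4 (adjusted p up to 0.115). With only replicates 1 and 2, *Gstm1* and *Gstp1* were called (adjusted p of *Gstp1* = 0.00609), and *Gstm2*, *Gstm3*, *Gstm4* and *Gstp2* were not. Estimates of these 4 were alike in size in the 2 pairs. In replicates 3 and 4 they were -1.28 for *Gstm2*, -2.35 for *Gstm3*, -2.19 for *Gstm4* and -3.56 for *Gstp2*. In replicates 1 and 2 they were -1.10, -2.92, -2.11 and -3.29 in the same order.

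Levels of 3 members differed between the replicate pairs. In replicates 3 and 4 against replicates 1 and 2, with genotype in the fit, *Gstp1*, *Gstp2* and *Gstm3* were higher (7.73% of all tested genes were called higher, 7.24% lower). *Gstp1* was higher by 1.53 ± 0.21 (adjusted p = 3.42e-04), *Gstp2* by 0.93 ± 0.20 (adjusted p = 0.00776) and *Gstm3* by 0.69 ± 0.12 (adjusted p = 0.00215). The same pairs differed in 9 of 10 genes known to be higher in male liver, all higher in replicates 3 and 4, and in 10 of 10 genes known to be higher in female liver, all lower there. *Gstp1* is known as a gene with higher expression in male mouse liver.

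The 2 levels of *Gstp1* were not seen in Gclc L-KO. Its means over replicates 3 and 4, and then over replicates 1 and 2, were 14.78 and 14.50 in Gclc L-KO, 13.39 and 11.27 in Nrf2 L-KO, 13.38 and 11.73 in L-DKO and 13.94 and 11.89 in WT. Both pairs of Gclc L-KO lay above both pairs of every other group. A fit with a separate effect in each pair gave a difference of -1.77 ± 0.18 between the Gclc L-KO effects of the pairs (adjusted p = 0.00152, with 136 genes called in that test). *Gstp2*, with transcripts much like those of *Gstp1*, differed between Gclc L-KO and WT by 4.29 in replicates 3 and 4 and by 3.60 in replicates 1 and 2. In Gclc L-KO, 2 of the 10 genes known to be higher in male liver, *Hsd3b5* and *Slco1a1*, were called lower than in WT (12.4% of all tested genes). That fit has no term for the pairs, between which 9 of the 10 differed. The median difference of the 10 was -1.73. Library means of the list ran from 8.42 to 10.29 in Gclc L-KO and from 8.86 to 13.48 in WT. The part of that shift in the *Gstp1* values was not tested.

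**Figure D3:**
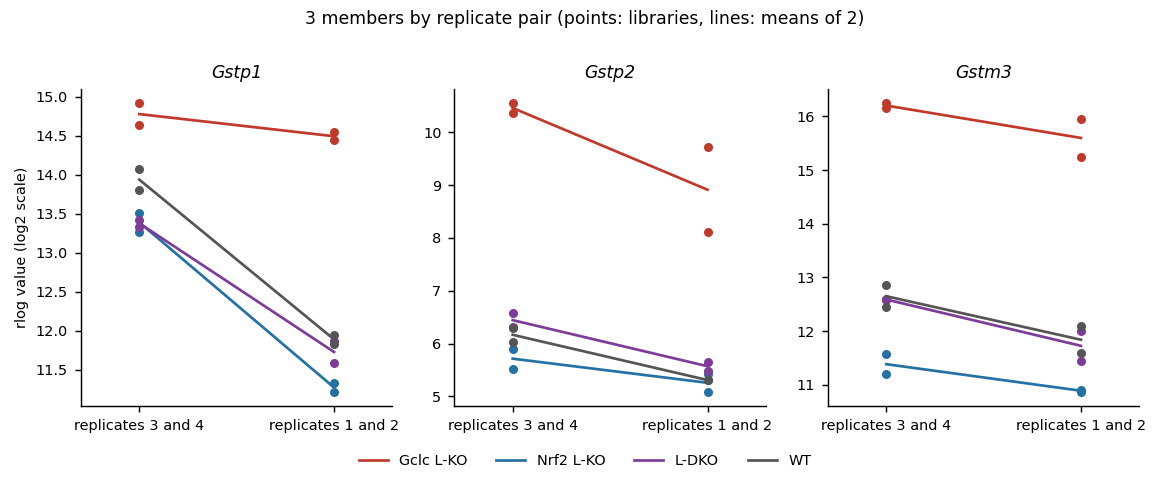
rlog value (log2 scale) of *Gstp1*, *Gstp2* and *Gstm3* in replicates 3 and 4 and in replicates 1 and 2. Points are libraries and lines join the means of 2 libraries of a group. *Gstp1* stays between 14.44 and 14.92 in Gclc L-KO in both pairs, while in Nrf2 L-KO, L-DKO and WT it is higher in replicates 3 and 4.

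The other classes of glutathione transferase were read from a list of 17 genes, of which 15 were tested. In Gclc L-KO against WT 6 were higher and 1 was lower (10.6% and 12.4% of all tested genes). Differences of the alpha-class *Gsta1* (6.36 ± 0.37, adjusted p = 6.67e-08) and *Gsta2* (3.94 ± 0.26, adjusted p = 3.22e-07) were the largest. The alpha-class *Gsta4* (1.52) and the microsomal *Mgst3* (1.63) followed, and *Gstz1*, which acts in tyrosine breakdown, was lower (-0.51). In L-DKO against Gclc L-KO 6 of the 15 were lower and 0 higher (4.80% and 3.84% of all tested genes). These were *Gsta1* (-5.88), *Gsta2*, *Gsta4*, *Mgst3* and *Gsto1*, all called higher in Gclc L-KO, and *Mgst1* (-0.52, adjusted p = 0.0349). This comparison shares the Gclc L-KO libraries with the one above and is no second observation of their level. In Nrf2 L-KO against WT 1 of 15 was called, *Gsta4* (-0.57, adjusted p = 0.00340), beside 0.126% of all tested genes called lower.

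Genes that supply glutathione or process its conjugates were read from a list of 21, all tested. Gclc L-KO had 8 of these genes called above WT, beside 10.6% of all tested genes, and 3 called below it, beside 12.4%. *Abcc4*, an efflux pump of the hepatocyte's blood-facing membrane, was higher by 4.28 ± 0.30 (adjusted p = 4.47e-07), glutathione reductase *Gsr* by 1.63 and *Gclm*, the regulatory subunit of glutamate-cysteine ligase, by 1.18. In L-DKO against Gclc L-KO 7 of the 21 were lower (4.80% of all tested genes), with *Abcc4* at -4.03 and *Gclm* at -0.95. *Abcc3*, a further conjugate pump, was lower in Nrf2 L-KO than in WT (difference -1.34, adjusted p = 0.0238) and in L-DKO than in WT (difference -1.39, adjusted p = 0.00266).

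**Figure D4:**
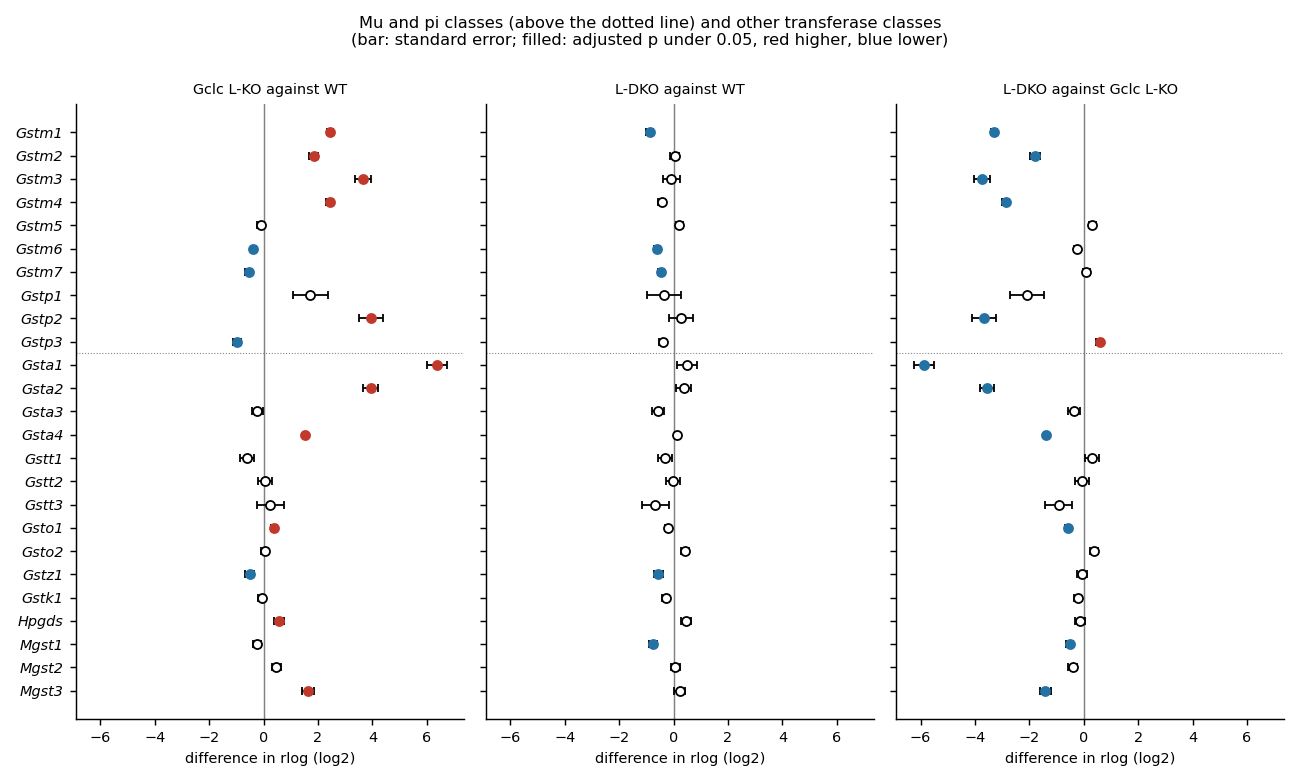
Difference in rlog value (log2, horizontal axis) of the 10 mu- and pi-class genes, above the dotted line, and of 15 genes of other transferase classes, below it. Points are limma estimates with standard errors and filled points have an adjusted p under 0.05. *Gsta1*, at 6.36 in Gclc L-KO against WT, lies beyond all mu- and pi-class genes.

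Across the 16 libraries the genes with the pattern most like each member, leaving out the other 9 members but not the pseudogenes, were ranked by Pearson's correlation of the rlog values, as a description without a test. Libraries of a group share a genotype, and correlations within groups were not computed. *Gstm4* was most like *Ppfibp2* (r = 0.995), *Gstm1* and *Gstm3* like *Gstm2-ps1* (r = 0.986 and 0.983) and *Gstm2* like *Fth1*, a ferritin chain (r = 0.977), and then *Nqo1* (r = 0.974). Both *Gstm1* and *Gstm3* share part of their sequence with *Gstm2-ps1*. *Gstp2* was most like *Esd* (r = 0.983) and *Srxn1*, the sulfiredoxin that repairs peroxiredoxins (r = 0.982). *Gstm3* was also close to *Akr1a1* and to thioredoxin reductase *Txnrd1* (r = 0.981 and 0.977). *Gstp1* followed *Gstp-ps* (r = 0.969), with which its sequence is shared in part. *Gstm7* was most like *Tmprss6*, a hepatocyte protease that lowers hepcidin (r = 0.982). *Gstp3* was most like *Ppp5c* (r = 0.938), *Gstm6* like *Klhl5* (r = 0.906) and *Gstm5* like *Asrgl1* (r = 0.887). The rest of the 3 highest were *Pgrmc1* and *Ugt2b5* for *Gstm1*, *Entpd5* for *Gstm2*, and *Gstm2-ps1* and *Entpd5* for *Gstm4*. They were *Zfp777* and *Abcg2* for *Gstp1*, *Akr1c13* for *Gstp2*, and *Ambp* and *Vps28* for *Gstp3*. For *Gstm5* they were *Sin3b* and *Glrx3*, for *Gstm6* *Mgst1* and *Ugt1a6b*, and for *Gstm7* *Haao* and *Col18a1*.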

How the data were processed

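Liver RNA of 16 libraries was measured in 4 groups of 4. Per the labels, libraries were made with a stranded poly(A) kit. The submitters' processing notes name the build GRCm39 and the tools DESeq2 1.34.0, R 3.5.1, STAR 2.7.9a, Subread 2.0.1 with featureCounts, fastp and bcl2fastq 2.20.0. The annotation and the counting options are not given in the sources used here. The authors deposited log2 values, the rlog values of DESeq2, so counts and depth cannot be had. Genes with a mean rlog of at least 3 were tested (15128), and 26656 genes were 0 in every library. One limma fit (limma 3.58.1, R 4.3.3; lmFit, eBayes with a trend, 1 mean per group) gave all comparisons, with Benjamini-Hochberg adjusted p over all tested genes. The procedure was tested on simulated data with independent noise and no replicate pairs, so that test does not cover the split between the pairs.

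Names were drawn from the 10 members, the 3 genes most correlated with each member, and the first 2 measured and up to 4 most changed called genes of each list. Of the lists not all such genes were named. *Gclc*, *Nfe2l2*, *Nqo1*, *Xist* and *Ddx3y* were named as checks. Genes outside this rule, among them marker genes and pseudogenes, were named after their values were seen. The members and the lists were chosen with earlier results of these data known. Replicate numbers were taken as pairs for Nrf2 L-KO against WT and for L-DKO against Gclc L-KO only, where the deviations of same-numbered libraries from the group means correlated by 0.26 to 0.55 and by 0.21 to 0.38, although only 2 of 4 numbers correlated best with their own in each. The labels give the numbers no meaning.

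Sequences were read with Python 3.11.15 from RefSeq windows (GRCm38.p6), and transcripts from GENCODE (GRCm38). Alternatives were no filter, a minimum of 6, no trend, robust eBayes, quantile normalization, median centring, *Xist* as a covariate, array weights, fits to the compared groups alone, a replicate block, each replicate pair alone, and leaving out each library.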

Additional observations from a re-analysis of the deposited data

Results flagged for a closer look

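Of 40 sets of 4 libraries (10 members in 4 groups), 2 held a library far from the other 3 by Dixon's test, which chance gives in about 1 of 20 sets. *Gstm4* was 10.55 in Nrf2 L-KO replicate 2, above the other 3 libraries of that group. *Gstm6* was 11.57 in Gclc L-KO replicate 1, the library inside the WT range.

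The effect of *Gclc* deletion differed with and without *Nrf2* deletion, by the interaction test, for *Gstm1* (-1.86), *Gstm2* (-1.19), *Gstm3* (-2.63), *Gstm4* (-2.15) and *Gstp2* (-3.43).

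The effect of a genotype differed between replicates 3 and 4 and replicates 1 and 2 for *Gstp1* in Gclc L-KO against WT (-1.77, adjusted p = 0.00152). In L-DKO against WT it differed for *Gstm5* (0.72, adjusted p = 0.0453), *Gstm7* (-0.51, adjusted p = 0.0370) and *Gstp3* (0.69, adjusted p = 0.0434), with 656 genes called in that test. There *Gstm5* differed from WT by 0.57 in replicates 3 and 4 and by -0.15 in replicates 1 and 2, *Gstm7* by -0.71 and -0.20, and *Gstp3* by -0.06 and -0.75. These tests compare 2 libraries with 2 in each pair. They use each gene's spread within every group and pair, moderated towards that of all tested genes.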

How the results depend on the processing

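The counts of called members between Gclc L-KO and WT (8), between L-DKO and Gclc L-KO (6) and between the replicate pairs (3) stayed within 1.5 times under every alternative run. For Nrf2 L-KO against WT the count of 1 became 2 with a minimum of 6 and with median centring, 3 with a replicate block or the *Xist* value as a covariate, 4 with array weights, 5 in replicates 3 and 4 alone and 0 in the other pair. For L-DKO against WT the count of 3 became 6 in replicates 3 and 4 alone and 1 in the other pair. For L-DKO against Nrf2 L-KO the count of 2 became 1 with no filter, with no trend, with quantile normalization and with only the groups compared, 4 with a replicate block or the *Xist* covariate, 6 for replicates 3 and 4 alone and 0 for the other pair. For the interaction the count of 5 became 2 in replicates 1 and 2 alone. Over all members and the 6 genotype comparisons, fits to replicates 1 and 2 alone lost 13 calls and gained 4, and fits to replicates 3 and 4 alone lost 0 and gained 14. The cause of these shifts was not tested. Leaving out 1 library gave 7 to 8 called members for Gclc L-KO, 1 to 3 for Nrf2 L-KO and 2 to 4 for L-DKO, each against WT, 5 to 6 for L-DKO beside Gclc L-KO, 0 to 3 for L-DKO beside Nrf2 L-KO and 3 to 5 for the interaction. Nrf2 L-KO reached 3 without WT replicate 1, and the interaction fell to 3 without Gclc L-KO replicate 3, Nrf2 L-KO replicate 3 or WT replicate 1. L-DKO against Nrf2 L-KO had 0 calls without L-DKO replicate 3 or 4 or Nrf2 L-KO replicate 3, and 1 without L-DKO replicate 1 or Nrf2 L-KO replicate 2 or 4.

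Outside the 2 comparisons with pairing, same-numbered libraries correlated by -0.07 to 0.36 (Gclc L-KO and WT), -0.05 to 0.36 (L-DKO and WT) and 0.04 to 0.45 (L-DKO and Nrf2 L-KO), and 2 of 4 numbers correlated best with their own in each, as they also did in both comparisons taken as paired. With a replicate block there, *Gstp1* was called in Gclc L-KO against WT (adjusted p = 0.00251), *Gstm4* in L-DKO against WT (0.0268), *Gstm3* and *Gstm7* in L-DKO against Nrf2 L-KO (0.00582 and 0.0360), and the *Gstm2* interaction was not (0.0650). Apart from these and the calls given in the report for the 2 paired comparisons, the block changed no call of a member. The interaction uses all groups, so a fit to the compared groups alone was not run for it.

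No called member changed sign under any alternative. Values called neither way did. In replicates 3 and 4 these were *Gstm5* in Gclc L-KO (0.050) and in Nrf2 L-KO (0.071), *Gstp3* in Nrf2 L-KO (0.13) and *Gstm2* in L-DKO (-0.13), all against WT, and *Gstp1* in L-DKO against Nrf2 L-KO (-0.012). In replicates 1 and 2 it was *Gstm5* in L-DKO against WT (-0.15), with array weights *Gstp2* in L-DKO (-0.054) and *Gstm5* in Nrf2 L-KO (0.012) against WT, and with quantile normalization *Gstm3* in L-DKO against WT (0.093) and *Gstm6* between the pairs (0.012). Leaving out 1 library gave -0.30 to 0.15 for *Gstm3* and -0.72 to 0.024 for *Gstp1* in L-DKO against WT, -0.029 to 0.18 for *Gstm7* in L-DKO beside Gclc L-KO and -0.15 to 0.62 for *Gstp1* in L-DKO against Nrf2 L-KO. Between the pairs it gave -0.087 to 0.078 for *Gstm2*, -0.064 to 0.020 for *Gstm5*, -0.044 to 0.036 for *Gstm6* and -0.087 to 0.023 for *Gstp3*. Values lie on the rlog scale and depth is unknown, so small differences of low-count members cannot be bounded.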
